A study of Mus musculus with 4 samples.

Results

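Of the 25239 genes counted in these libraries, 10 were taken here by symbol as core genes of the PIWI-interacting RNA (piRNA) pathway: Piwil2, Tdrd1, Tdrd5, Tdrd6, Tdrd9, Mael, Asz1, Mov10l1, Gtsf1 and Pld6. All 10 were present in the count tables, and 9 had enough counts to be tested. The libraries held polyadenylated RNA of mouse embryonic stem cells (mESC) of genotype Ogt fl/fl, in which the gene of O-GlcNAc transferase can be deleted. In the Ogt iKO group (n = 2) the cells were grown with 4-hydroxytamoxifen (4-OHT) for 6 days and sorted for a yellow fluorescent protein (YFP). In the control group (n = 2) cells of the same genotype were kept without 4-OHT for 6 days. Both groups grew with LIF on mouse embryonic fibroblast feeders that had been blocked from dividing with mitomycin C, and both were sorted to remove feeders and dead cells. The recombinase, the promoter that drives it and the number of clones are not given in the sources used here, and no 4-OHT-treated cells with intact Ogt are among these groups. Nothing in the labels says that the replicates came from separate cultures, so the p-values measure only the spread between these samples, which may be technical.

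piRNAs are small RNAs of the germline that are bound by PIWI proteins and guide them to transposon transcripts, which are cleaved or silenced in the nucleus by DNA methylation. PIWI proteins carry methylated arginines that Tudor-domain proteins bind, and this brings the pathway together in granules beside the mitochondria of germ cells. In most somatic tissues many of these genes are silent and carry methylated CpG-rich promoters, so their expression is often read alongside DNA methylation.

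The libraries held 14668489 to 16504204 counts. Ogt itself had 25.6 and 25.1 CPM (counts in every 1000000, on library sizes scaled by the trimmed mean method, TMM) in Ogt iKO replicates 1 and 2, against 191 and 203 CPM in control replicates 1 and 2. Across the 14525 genes tested with edgeR's quasi-likelihood test, 33.2% were higher and 32.0% lower in Ogt iKO at a Benjamini-Hochberg adjusted p under 0.05, which is the rule behind "rose" and "fell" throughout. Stem cell identity was present but reduced: 10 of 10 stem cell markers were detected, 9 of them fell, and their summed level was 2577 and 2918 CPM in Ogt iKO against 4854 and 4831 CPM in control. Markers of a 2-cell-like state, seen in rare cells of mESC cultures, rose for 9 of 9 genes, from summed levels of 37.4 and 24.1 CPM to 158 and 173 CPM. Of 10 germ cell markers 7 rose and 2 fell, and their summed level went from 491 and 472 CPM to 1092 and 999 CPM. Dazl and Stra8, both among the 7 that rose, carried the rise of this sum. The other 8 markers together were at 241 and 243 CPM in Ogt iKO and 250.2 and 248 CPM in control. That flat sum holds further rises and falls that offset each other. All 15 fibroblast markers were detected in every library, and their summed level was 2646 CPM in Ogt iKO replicate 1, 635 CPM in Ogt iKO replicate 2 and 1042 and 1209 CPM in the controls. The part of these cell states in the results that follow was not tested. In bulk RNA, a change in the number of cells that express a gene and a change in RNA per cell cannot be told apart.

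The piRNA genes divided into 4 that rose (Asz1, Tdrd9, Tdrd1 and Tdrd5), 1 that fell slightly (Piwil2), 4 that passed no threshold (Mael, Mov10l1, Gtsf1 and Pld6) and 1 too low to test (Tdrd6). The 4 of 9 tested genes that rose are 44.4%, beside 33.2% of all genes tested, and the 1 that fell is 11.1%, beside 32.0%. The median log2 fold change of the 9 was 0.13, against 0.02 over all genes tested. At a fold of at least 2, 3 of the 9 were higher and 0 lower, beside 14.9% and 6.04% of all genes tested. Asz1 and Tdrd9 reached the filter's minimum of 0.619 CPM in both Ogt iKO libraries but in 0 and 1 of the controls, so they could be tested only because they were high in Ogt iKO, and these counts are a description of the group. The summed level of the 10 genes was 138 and 131 CPM in Ogt iKO and 137 and 113 CPM in control, so the make-up of the group changed more than its total.

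**Figure D1:**
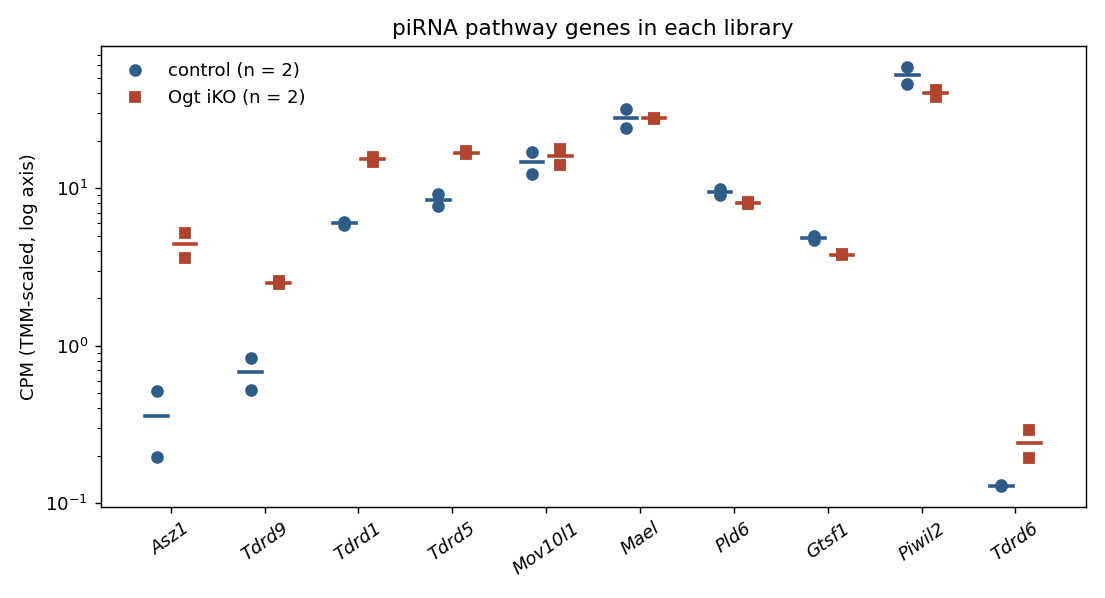
Level of the 10 piRNA pathway genes in each library, as TMM-scaled CPM on a log axis. Circles are the 2 control libraries, squares the 2 Ogt iKO libraries and bars the group means. For Asz1, Tdrd9, Tdrd1 and Tdrd5 both Ogt iKO libraries lie above both controls, while the groups overlap for Mael and Mov10l1.

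Piwil2 was the only PIWI gene among the 10. It encodes MILI, the PIWI protein that binds the first piRNAs of fetal male germ cells and slices transposon transcripts, and it lies on chromosome 14 from 70372477 to 70436898 (positions are of GRCm38.p6). Piwil2 was at 41.7 and 38.1 CPM in Ogt iKO replicates 1 and 2 and at 58.8 and 45.6 CPM in control replicates 1 and 2. Both Ogt iKO libraries were below both controls, but the controls differed from each other by more than the nearer control differed from Ogt iKO. Its log2 fold change was -0.39 (SE 0.121, edgeR adjusted p = 0.0207). Without control replicate 1 the log2 fold change was only -0.20. With scaling by library totals the call was lost (-0.22, edgeR adjusted p = 0.145). Piwil2 RNA was thus well detected in untreated mESC, with 910 and 699 counts, and was not among the genes that rose.

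Of the Tudor-domain genes, Tdrd1, Tdrd5 and Tdrd9 rose, by 2.55-fold, 1.99-fold and 3.66-fold, and Tdrd6 was near the limit of detection in every library. Tdrd1 (chromosome 19, 56826171 to 56870012) encodes a protein with several Tudor domains that binds MILI and is needed for its normal piRNA load. It was at 14.7 and 15.9 CPM in Ogt iKO and at 6.14 and 5.80 CPM in control. The libraries of each group were close to each other and far from the other group, at 15.3 CPM ± 0.833 (SD, n = 2) against 5.97 CPM ± 0.237 (SD, n = 2). The rise passed the threshold (log2 fold change 1.35, SE 0.149, edgeR adjusted p = 8.36e-05).

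Tdrd5 (chromosome 1, 156255296 to 156304304) encodes a protein needed for the processing of piRNA precursors and for the germ granules of spermatids. It was at 16.4 and 17.1 CPM in Ogt iKO and at 7.69 and 9.13 CPM in control, with no overlap. Its level rose 1.99-fold (log2 fold change 0.99, SE 0.144, edgeR adjusted p = 0.000377), just short of the 2-fold line that the 3 other risers passed. A stretch of 2.54% of its exon length lies under an antisense transcript, and the counts of such genes are uncertain because the strand counted is not stated.

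Tdrd9 (chromosome 12, 111971488 to 112068854) encodes a Tudor protein with a helicase domain that acts with the nuclear PIWI protein MIWI2 in fetal germ cells. It had 42 and 40 counts in Ogt iKO, or 2.46 and 2.58 CPM, and 13 and 8 counts in control, or 0.840 and 0.522 CPM. Every Ogt iKO library was above every control, from a control level of few counts. The rise was 3.66-fold (log2 fold change 1.87, SE 0.329, edgeR adjusted p = 0.00115), and the log2 fold change ran from 1.56 to 2.25 with 1 library left out.

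Tdrd6 (chromosome 17, 43615334 to 43631846) encodes a large Tudor protein of the chromatoid body, the granule of later male germ cells. It had 5 and 3 counts in Ogt iKO and 2 and 2 in control, where 3 counts correspond to 0.175 to 0.196 CPM. The ratio of the summed counts on library totals was 2.12, with a 95% interval for counting error alone (exact binomial) of 0.569 to 9.64. No difference was detectable for Tdrd6 at this depth.

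Asz1 changed most. It encodes GASZ, a protein with ankyrin repeats and a SAM domain that holds the pathway to the outer membrane of mitochondria in germ cells, and it lies on chromosome 6 from 18050964 to 18109061. Asz1 had 89 and 56 counts in Ogt iKO, or 5.21 and 3.61 CPM, and 8 and 3 counts in control, or 0.517 and 0.196 CPM. The lowest Ogt iKO library was several times above the highest control, and the replicates of both groups differed among themselves. The rise was 12.1-fold (log2 fold change 3.60, SE 0.415, edgeR adjusted p = 0.0001095), which placed Asz1 at rank 77 of the 14525 genes by log2 fold change. Because the controls held 11 counts together, the size is uncertain: the ratio of summed counts on library totals was 14.0, with an exact 95% interval for counting error of 7.60 to 28.7. Without control replicate 1 the log2 fold change of Asz1 was 4.44 (21.7-fold), and without control replicate 2 it was 3.07.

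Pld6, the other mitochondrial gene of the group, did not pass the threshold. It encodes MitoPLD, the mouse relative of the fly nuclease Zucchini that cuts piRNA precursors, and lies on chromosome 11 from 59783893 to 59787657. Pld6 was at 7.90 and 8.19 CPM in Ogt iKO and at 9.05 and 9.91 CPM in control. Both Ogt iKO libraries were slightly below both controls, with a log2 fold change of -0.24 (SE 0.156, edgeR adjusted p = 0.209). The scaffold gene Asz1 thus passed the threshold and the nuclease gene did not, and the difference between their responses was not tested.

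Mov10l1, Mael and Gtsf1 also passed no threshold. Mov10l1 (chromosome 15, 88982891 to 89055152) encodes the RNA helicase that binds piRNA precursors. It was at 17.8 and 14.1 CPM in Ogt iKO and at 16.99 and 12.3 CPM in control. Replicate 1 exceeded replicate 2 in both groups, the groups overlapped, and the log2 fold change was 0.13 (SE 0.183, edgeR adjusted p = 0.564).

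Mael (chromosome 1, 166201385 to 166238744) encodes Maelstrom, a protein with an HMG box needed for transposon silencing in the male germline. It was at 28.0 and 27.6 CPM in Ogt iKO and at 31.9 and 24.1 CPM in control, so that both Ogt iKO libraries lay between the controls. The log2 fold change was -0.01 (SE 0.128, edgeR adjusted p = 0.953), and its sign depended on the scaling. Gtsf1 (chromosome 15, 103402458 to 103430445) encodes a small zinc-finger protein that helps PIWI proteins slice their targets. It was at 3.80 and 3.74 CPM in Ogt iKO and at 4.72 and 4.95 CPM in control. The groups did not overlap, but the log2 fold change of -0.36 (SE 0.195) had an edgeR adjusted p of 0.138. Groups without overlap were common in this comparison, at 42.3% of genes tested with Ogt iKO above control and 40.9% with Ogt iKO below.

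**Figure D2:**
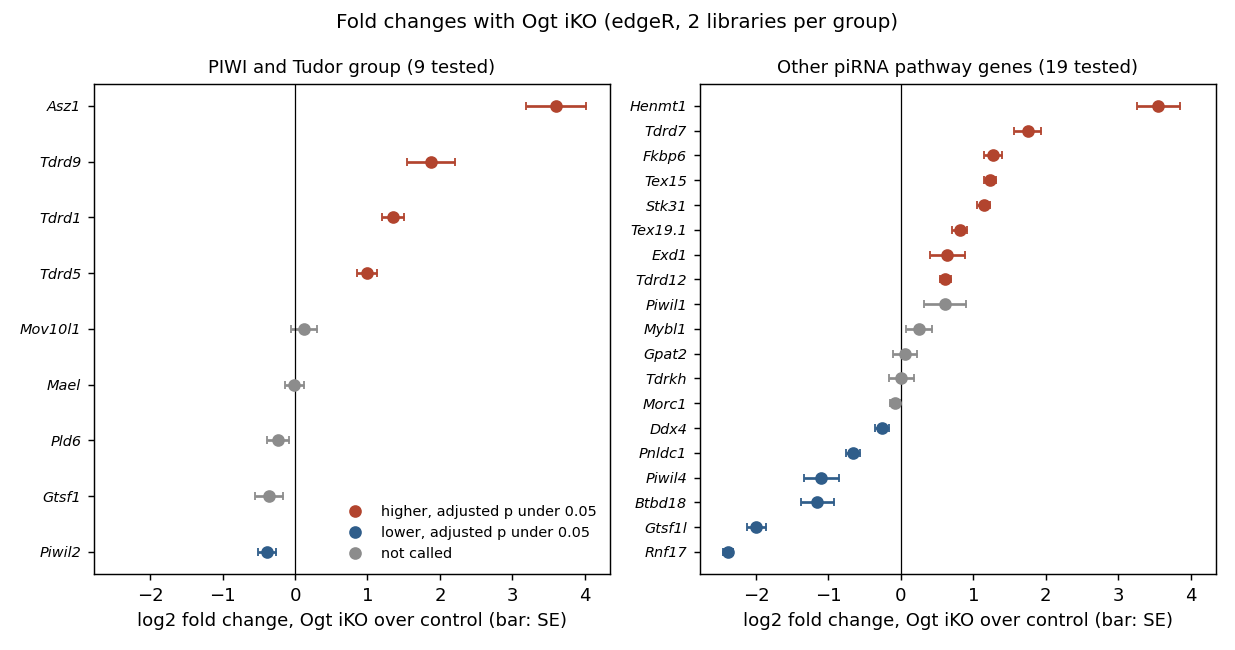
Log2 fold change (Ogt iKO over control, bar: standard error, edgeR) of the 9 tested genes of the group (left) and of 19 other tested piRNA pathway genes (right), coloured by call. Asz1 and Henmt1 rose most, at 3.60 and 3.55, and Rnf17 fell most among these genes, at -2.39.

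Libraries were left out in turn to see how far each carried these values. Without Ogt iKO replicate 1, the library with the highest summed fibroblast markers, the log2 fold changes were 3.32 for Asz1, 1.91 for Tdrd9, 1.41 for Tdrd1 and 1.03 for Tdrd5. These 4 rises were as large or nearly as large as with all 4 libraries. Fibroblast markers were also detected in the libraries kept, and their part in these values was not tested. Each rise kept an adjusted p under 0.05 in every alternative setting that used all 4 libraries (edgeR or DESeq2). These settings reuse the same libraries. With 1 left out, a group holds a single library, so only effect sizes are read there. Besides the sizes of the Piwil2 fall and the Asz1 rise, single libraries decided the sign of values near 0. Mov10l1 changed sign without Ogt iKO replicate 1 (-0.05) and without control replicate 2 (-0.10), and Mael did without control replicate 1 (0.20).

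**Figure D3:**
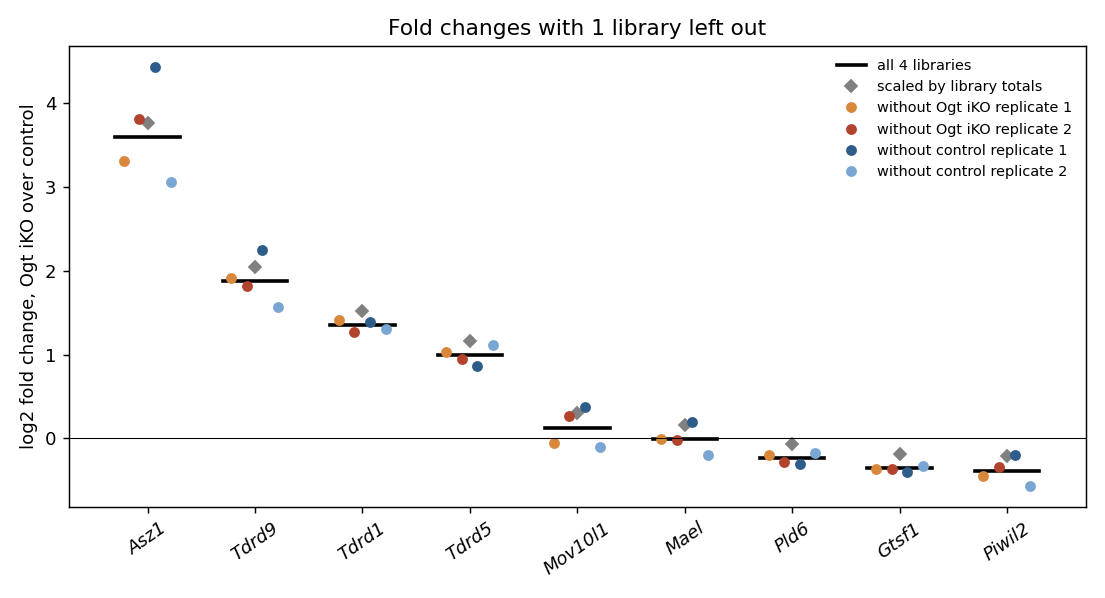
Log2 fold change (Ogt iKO over control) of the 9 tested genes with all 4 libraries (black bars), with each library left out (circles) and with scaling by library totals alone (diamonds). Asz1, Tdrd9, Tdrd1 and Tdrd5 stay above 0 at every point, while Mov10l1 and Mael fall on both sides of it.

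Levels were next compared between genes, as CPM per kb of exon (length of the merged GENCODE M21 exons). In control mESC the order was led by Mael at 16.1 CPM per kb ± 3.16 (SD, n = 2), Piwil2 at 9.87 ± 1.77 (SD, n = 2) and Pld6 at 5.39 ± 0.348 (SD, n = 2), whose libraries did not overlap. Mov10l1 at 3.50 and Gtsf1 at 3.48 CPM per kb overlapped, as did Tdrd5 at 1.21 and Tdrd1 at 1.10. Asz1 and Tdrd9, both at 0.126 CPM per kb, overlapped too, and Tdrd6 was last at 0.0184. The genes that rose were thus the ones with the lowest control levels per length, apart from Tdrd6. This is in part fixed by the filter, since Asz1 and Tdrd9 could be tested only because they were high in Ogt iKO, and nothing is read from it.

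In Ogt iKO the first 4 places were the same, and Tdrd1, Gtsf1, Tdrd5 and Asz1 lay closer together than in control. Asz1 and Tdrd9, which overlapped in control, stood apart. Tdrd1 reached 2.81 CPM per kb ± 0.153 (SD, n = 2) and overlapped Gtsf1, at 2.71 ± 0.0319 (SD, n = 2). Tdrd5 followed at 2.42 CPM per kb, Asz1 at 1.56, Tdrd9 at 0.465 and Tdrd6 at 0.0344. Asz1 was therefore still below Mael, Piwil2 and Pld6 per length after its rise. Of the summed CPM of the 10 genes, Piwil2 made up 43.0% and 40.5% in control but 30.1% and 29.1% in Ogt iKO. Asz1 made up 0.378% and 0.174% in control but 3.76% and 2.76% in Ogt iKO.

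**Figure D4:**
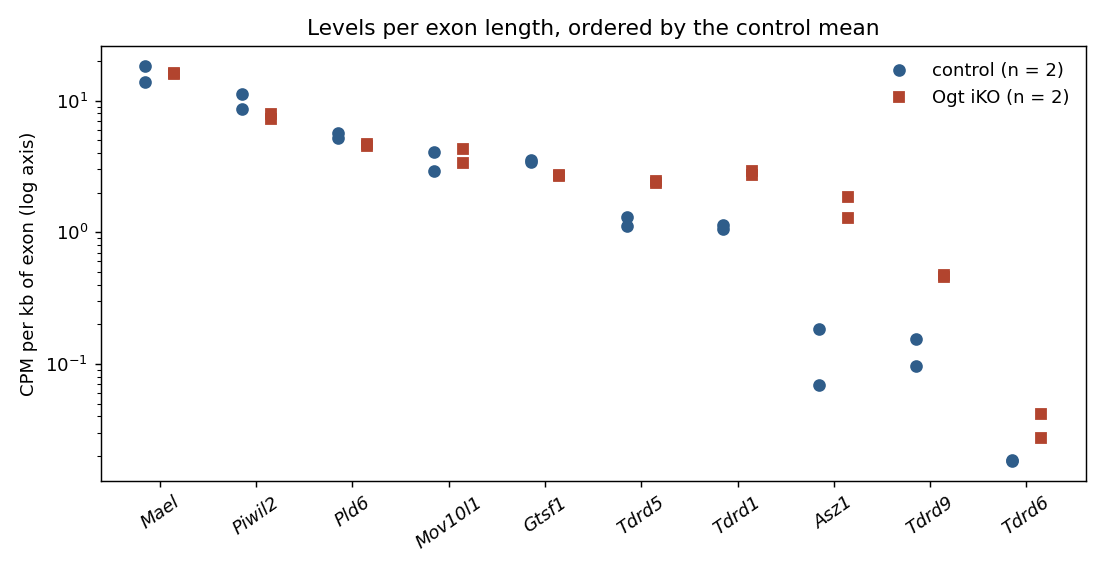
CPM per kb of exon of the 10 genes in each library (log axis), ordered by the control mean. Circles are control and squares are Ogt iKO libraries. Mael leads in both groups, and the distance between groups is widest for Asz1.

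The other genes of the pathway, from a list of 24, moved in both directions. Of the 24, 21 were in the tables and 19 were tested, with a median log2 fold change of 0.25. Of the 19, 8 were higher (42.1%, beside 33.2% of all genes), 6 lower (31.6%, beside 32.0%) and 5 not called. Henmt1, among the 8, could be tested only because it was high in Ogt iKO, so these counts are a description of the list. Tdrd15, Spocd1 and Dnmt3c were not found under these symbols and are not analysed here, and Gtsf2 and Nanos2 were too low to test. Of the 8 that rose, 3 were Tudor genes. Tdrd7, whose protein shapes the chromatoid body, was at 20.5 and 15.5 CPM in Ogt iKO against 4.91 and 5.80 CPM in control (log2 fold change 1.75). Stk31, which encodes a Tudor protein with a kinase-like domain, rose by 1.14 on the log2 scale, and Tdrd12, needed for secondary piRNAs bound by MIWI2, rose by 0.62 from an already high level of 86.1 and 88.9 CPM in control.

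Rnf17 went the other way. It encodes a RING-finger protein with Tudor domains that restrains piRNA amplification in male germ cells. Rnf17 was at 37.2 and 39.5 CPM in Ogt iKO and at 198 and 203 CPM in control, a 5.23-fold fall (log2 fold change -2.39, SE 0.0643, edgeR adjusted p = 2.486e-07). Tdrkh, a mitochondrial Tudor protein, was at 7.14 and 7.22 CPM against 7.88 and 6.39 CPM and did not pass the threshold, but 36.7% of its exon length lies under the opposite-strand gene Oaz3, so its count is uncertain. Across both lists, in a grouping by role made after the values were seen, 6 of 8 tested Tudor-domain genes were higher and 1 was lower, and of 3 PIWI genes 0 were higher and 2 were lower. Beside these stand 33.2% higher and 32.0% lower among all genes tested, and the difference between the roles was not tested. Tdrd9, among the 6, could be tested only because it was high in Ogt iKO. The broadly expressed relatives described below, Tdrd3 among them, are not in these counts. The remaining PIWI genes were Piwil4, which encodes MIWI2 and fell from 7.69 and 5.54 CPM to 3.51 and 2.64 CPM (log2 fold change -1.10, edgeR adjusted p = 0.00409, with 2.54% of its exon length under an antisense transcript), and Piwil1, which encodes MIWI of later germ cells. Piwil1 was at 4.56 and 3.55 CPM in Ogt iKO and 3.36 and 1.96 CPM in control (log2 fold change 0.61, edgeR adjusted p = 0.0969). It passed with the replicate number as a block (0.63, edgeR adjusted p = 0.038) and with library totals (0.78, edgeR adjusted p = 0.0453). With 1 library left out, its log2 fold change ran from 0.26 to 1.04. The count of 0 rising PIWI genes therefore depends on the setting.

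The 2 enzymes that finish the 3′ end of a piRNA moved in opposite directions. Henmt1, the methyltransferase that caps the end with a methyl group, had 82 and 70 counts in Ogt iKO and 6 and 6 in control. Its log2 fold change was 3.55 (SE 0.302, edgeR adjusted p = 2.27e-05), close to that of Asz1, and the ratio of summed counts was 13.5 with an exact 95% counting interval of 7.48 to 26.6. As for Asz1, 0 controls reached the filter's minimum, and 14.7% of the exon length of Henmt1 lies under an opposite-strand gene. Pnldc1, the exonuclease that trims the end, fell from 27.8 and 29.6 CPM to 17.6 and 18.8 CPM (log2 fold change -0.66, edgeR adjusted p = 0.000444), with 5.41% of its exon length under an antisense transcript.

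Further rises were those of Fkbp6 (log2 fold change 1.27), a co-chaperone of the pathway, Tex15 (1.23), which acts with MIWI2 in transposon methylation, Tex19.1 (0.82), a transposon restraint of germ and stem cells, and Exd1 (0.64), whose product is a partner of TDRD12. Tex19.1 was the most abundant gene of the list per length, at 188 CPM per kb in Ogt iKO and 107 CPM per kb in control, and it has a close copy with which reads may be shared. Further falls were those of Gtsf1l (log2 fold change -1.99), a relative of Gtsf1, Btbd18 (-1.15), a regulator of piRNA precursor transcription, and Ddx4 (-0.26), the germ cell helicase VASA. The calls of Exd1 and Ddx4 both failed with DESeq2 and with no filter, and that of Ddx4 also failed with library totals and with upper quartiles. Gpat2, Morc1 and Mybl1 had log2 fold changes of 0.06, -0.08 and 0.25 and passed no threshold.

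Broadly expressed relatives of these genes served as a comparison. Of 9 such genes, 3 were higher and 3 lower (33.3% each, near the 33.2% and 32.0% of all genes tested), with a median log2 fold change of 0.06. The slicing Argonaute Ago2, with 1.56% of its exon length under an opposite-strand gene, fell (log2 fold change -0.51), while Ago3 (0.85) and Ago4 (2.21) rose, the latter from 1.55 and 2.02 CPM to 9.36 and 7.22 CPM. Mov10, the somatic relative of Mov10l1, fell by 0.28 on the log2 scale, Tdrd3 rose by 0.57 and Smn1 fell by 0.41. Ago1, Snd1 and Akap1 passed no threshold, with log2 fold changes of 0.12, -0.09 and 0.06. With scaling by library totals the call of Mov10 was lost (-0.12, edgeR adjusted p = 0.124), while Ago1 (0.29) and Akap1 (0.23) passed. Ago1 also passed with upper quartile scaling (0.16, edgeR adjusted p = 0.0303). A rise from a low control level was therefore also seen among relatives outside the piRNA pathway, in Ago4.

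Promoter sequences were read to describe the genes that rose beside those that passed no threshold. RefSeq promoter windows (GRCm38.p6) were at hand for 8 of the 10 genes, with 11 annotated starts in all, and the 250 bases before each start were searched. For 8 of the 11 starts the bases that follow were found early in a GENCODE transcript of the gene. Where a gene had several starts (3 for Tdrd1, 2 for Pld6), the most upstream one is described unless another is named. The motifs were CACGTG, the E-box bound by MAX and its partner MGA, and TCCCGC, bound by E2F6, each on both strands. MGA, MAX and E2F6 belong to a Polycomb complex known to repress germline genes in mESC. The E-box was present in 6 of the 11 windows, which belong to 5 genes (Tdrd1 with 2 overlapping windows, Tdrd9, Mael, Mov10l1 and Pld6), and in 6.02% of 32851 promoter windows of the same length. The E2F6 motif was present in 2 of the 11 (Tdrd5 and Mael) and in 16.9% of all windows. Both motifs contain a CpG, and most of the 11 windows are richer in CpG sites than the median window. The shares are therefore not compared at equal base composition. A match is a run of letters and does not show that a factor binds there.

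The E-box was thus found in genes that rose (Tdrd1 and Tdrd9) and in genes that passed no threshold (Mael, Mov10l1 and Pld6), and neither motif was in the window of Asz1, which rose most. The sequences follow 5′ to 3′ on the strand of the gene, with both motifs in capitals and without bases that belong to a transcript of the gene, except for a short stretch around the E-box of Tdrd1.
Asz1 upstream of the start, chr6:18109062-18109311, minus strand: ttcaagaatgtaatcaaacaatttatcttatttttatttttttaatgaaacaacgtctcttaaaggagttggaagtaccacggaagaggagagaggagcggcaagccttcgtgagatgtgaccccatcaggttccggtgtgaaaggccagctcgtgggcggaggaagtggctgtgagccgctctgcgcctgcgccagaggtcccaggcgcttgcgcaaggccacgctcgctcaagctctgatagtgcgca
Tdrd9, chr12:111971309-111971487, plus strand: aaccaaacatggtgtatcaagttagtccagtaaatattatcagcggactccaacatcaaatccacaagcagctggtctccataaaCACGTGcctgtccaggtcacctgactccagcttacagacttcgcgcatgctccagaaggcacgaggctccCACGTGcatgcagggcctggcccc
Tdrd1, chr19:56825959-56826170, plus strand: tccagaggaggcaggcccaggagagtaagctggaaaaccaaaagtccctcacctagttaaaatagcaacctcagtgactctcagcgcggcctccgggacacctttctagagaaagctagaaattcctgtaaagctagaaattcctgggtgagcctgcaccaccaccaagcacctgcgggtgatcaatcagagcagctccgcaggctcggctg
Tdrd1 E-box, chr19:56826186-56826208, plus strand: tggggctgcgcgCACGTGggagt
Mael, chr1:166238748-166238994, minus strand: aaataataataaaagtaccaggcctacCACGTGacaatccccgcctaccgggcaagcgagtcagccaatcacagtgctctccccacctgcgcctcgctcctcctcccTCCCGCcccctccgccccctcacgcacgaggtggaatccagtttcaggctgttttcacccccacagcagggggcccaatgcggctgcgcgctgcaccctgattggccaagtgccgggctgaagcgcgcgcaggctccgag
Mov10l1, chr15:88982744-88982890, plus strand: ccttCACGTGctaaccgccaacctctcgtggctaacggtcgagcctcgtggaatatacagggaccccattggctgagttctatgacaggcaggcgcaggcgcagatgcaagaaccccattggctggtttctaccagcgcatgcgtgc
Pld6, chr11:59787658-59787907, minus strand: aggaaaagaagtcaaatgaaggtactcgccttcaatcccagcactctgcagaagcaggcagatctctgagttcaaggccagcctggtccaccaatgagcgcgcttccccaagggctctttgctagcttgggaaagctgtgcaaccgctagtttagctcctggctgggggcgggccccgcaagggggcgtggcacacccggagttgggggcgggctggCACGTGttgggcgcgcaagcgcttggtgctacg

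Distances are counted from the annotated start of the window, which for Tdrd1, Tdrd5, Tdrd9, Gtsf1 and Mov10l1 lies inside the span given for the gene above. The window of Tdrd5 lies wholly within that span. Among the 11 windows, that of Tdrd9 was the only one with 2 E-boxes, beginning 165 and 95 bases before that start. The E-box of Tdrd1 began 11 bases before the first annotated start and 77 before the second, and lay inside the span of the gene. That of Pld6 began 33 bases before the start, and those of Mael and Mov10l1 lay farther away, at 223 and 246 bases. CpG sites, the substrate of DNA methylation, numbered 15 in the 250 bases of Asz1, 8 for Tdrd9, 40 for Tdrd5 and 11, 22 and 3 for the 3 starts of Tdrd1. The genes that passed no threshold had 18 (Mael), 19 (Mov10l1), 7 (Gtsf1) and, for the 2 starts of Pld6, 14 and 21. The median over all windows was 6, with the third window of Tdrd1 below it and the others above, and the numbers of the genes that rose and of those that did not overlapped. DNA methylation at these promoters was not measured in these libraries.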

How the data were processed

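The authors deposited 1 table of raw counts per gene symbol for each library, with no normalization. Per the submitters' processing notes, STAR and Picard were used with the build mm10. Their versions, the annotation, the strand counted and the handling of reads that map to several loci are not given in the sources used here. Per the labels' protocols, the kit was stranded, but because the strand counted is not stated, the counts of genes that lie in part under an opposite-strand exon are uncertain. These are Tdrd5, Tdrkh, Henmt1, Pnldc1, Piwil4, Ago2 and Nanos2. The 4 tables held 25239 symbols and 0 rows that name no gene. Groups came from the titles.

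The test was edgeR's quasi-likelihood test (version 4.0.16, R 4.3.3; TMM, filterByExpr with a minimum of 10 counts, 4 libraries, no covariate), with Benjamini-Hochberg adjustment over 14525 genes. Standard errors came from the fold change and its F statistic. The steps were tested on simulated data. Alternatives were RLE, library totals or upper quartiles as scaling, DESeq2 1.42.0, no filter, a minimum CPM of 1 reached by 2 or more libraries, a robust spread, the replicate number as a block, and each library left out. An exact test of 2 libraries against 2 cannot give a p below 0.333, so the tests rest on a spread shared among genes. Intervals cover counting error only, since the counts of the 2 libraries of a group were summed and their spread was left out. Reads carried no molecular identifiers, so copies of a molecule may not be told apart, which the intervals do not cover.

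Positions came from RefSeq (GRCm38.p6, the assembly mm10 names) for the 41 genes looked up that had counts, and exon lengths from GENCODE M21. The genes and lists were chosen with earlier results of these data known. By the rule for naming genes, the text names Ogt, the 10 genes, and the genes of the other lists of the pathway and its relatives. Dazl and Stra8 were named after their values were seen, and Oaz3 for its overlap with Tdrkh.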

Additional observations from a re-analysis of the deposited data

How the results depend on the processing

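Of the 108 values of the 9 tested genes under 12 alternative settings, 101 kept their direction and their side of the threshold. With a library left out, 1 group holds a single library, so its calls rest on the spread of the other group alone. The number of genes that rose was 4 in every setting that used all 4 libraries. The number that fell was 0 in place of 1 with scaling by library totals alone. That scaling moved the median over all tested genes from 0.02 to 0.19 (log2 fold change) and the share of calls that were higher from 50.9% to 65.1% (6116 higher, 3282 lower). Signs turned only for genes that were not called. These were Mael with library totals (0.16), with upper quartiles (0.032) and with a library left out (-0.21 to 0.20), Mov10l1 with a library left out (-0.10 to 0.37), Tdrkh with RLE (-0.0018), DESeq2 (-0.017), no filter (-0.0084) and a library left out (-0.14 to 0.16), Gpat2 with a library left out (-0.20 to 0.25), and Morc1 (0.091) and Snd1 (0.076) with library totals. The cause was not tested, beyond the shift by library totals. The labels do not say whether same-numbered libraries were paired. Their deviations from the group means correlated at 0.086 across genes, which cannot decide it. With that number as a block, 4 genes of the group rose and 1 fell, and of the other pathway genes 9 rose and 6 fell, against 8 and 6 without it. Depth limits Tdrd6, and the control levels of Asz1, Henmt1 and Tdrd9 rest on few counts.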
